A study of Arabidopsis thaliana with 18 samples.

Results

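Brassinosteroids are plant steroid hormones that promote cell expansion and are needed for a normal hypocotyl, the seedling stem that elongates in warm air. They are made from campesterol by DET2, a steroid reductase, and by a set of cytochrome P450 enzymes that includes DWF4, CPD, ROT3, BR6OX1 and BR6OX2, and are inactivated by another P450, BAS1. The hormone is sensed at the cell surface by the receptor kinase BRI1, and the signal releases the transcription factors BZR1 and BES1, which promote growth genes and repress several synthesis genes. The account below covers these 10 genes, taken by locus identifier from the 33602 genes of the deposited table whatever their values, with the members and the wider gene lists chosen with earlier results of these data known. The synthesis genes are DWF4 (AT3G50660), CPD (AT5G05690), ROT3 (AT4G36380), DET2 (AT2G38050), BR6OX1 (AT5G38970) and BR6OX2 (AT3G30180), the inactivation gene is BAS1 (AT2G26710), and the signalling genes are BRI1 (AT4G39400), BZR1 (AT1G75080) and BES1 (AT1G19350).

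The libraries came from Arabidopsis thaliana seedlings of the Columbia strain at day 7, in 6 groups of 3 libraries each. The pif4 mutant (genotype given as PIF4-/-) lacks a basic helix-loop-helix factor of warm growth, the double mutant bbx18 bbx23 (BBX18-/-BBX23-/-) carries lesions in a pair of B-box genes, and the third genotype is wild type. Each genotype was sampled at 29 °C and at 22 °C. The labels do not give the alleles, how many seedlings made a library or whether replicates were separate cultures, so a p-value speaks only of the spread among the libraries at hand, which may be technical. Values are FPKM, reads of a gene scaled by its length and by the size of the library, which allow levels of different genes to be set side by side. The sources used here give no read numbers per library, so no counting interval can be attached to a value.

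PIF4 measured 9.09, 11.02 and 7.84 FPKM in pif4 at 29 °C, against 19.4, 16.1 and 16.8 FPKM in wild type at 29 °C. It was lower in pif4 by 0.84 ± 0.13 on the log2 scale (SE; adjusted p = 0.0109), so reads of the gene were still present in the mutant. At 22 °C it measured 7.90, 6.96 and 6.30 FPKM in pif4 and 10.4, 10.9 and 8.83 FPKM in wild type, which did not overlap, and the difference of −0.46 ± 0.13 was not called (adjusted p = 0.987). With the replicate number as a block the difference was −0.46 ± 0.11 and was not called either (adjusted p = 0.204). At 29 °C BBX18 measured 7.12, 51.3 and 26.1 FPKM in bbx18 bbx23 and 9.43, 64.3 and 29.9 FPKM in wild type. The groups overlapped, BBX18 was lower in bbx18 bbx23 within each replicate number, and it was not called with or without the number as a block (−0.29 and adjusted p = 1 in both fits). BBX23 was listed at 0 in all 18 libraries. At 22 °C BBX18 measured 20.9, 16.6 and 16.4 FPKM in bbx18 bbx23 and 30.4, 28.5 and 27.7 FPKM in wild type, which did not overlap and were not called apart (adjusted p = 1). The labels of the bbx18 bbx23 libraries were therefore not checked by a lost transcript. Summed FPKM ran from 744698 to 963730 per library at 29 °C and from 909028 to 1162160 at 22 °C. The 10 most abundant genes of a library held 7.16% to 9.55% of its sum at 29 °C and 12.36% to 15.45% at 22 °C. All 8 root markers and all 8 shoot markers were above 0 FPKM in these whole seedlings.

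Levels across the pathway differed widely per length of gene. CPD and BES1 were the most abundant of the 10, with medians over 18 libraries of 193 and 171 FPKM. BRI1 and BZR1 had medians of 39.6 and 28.7 FPKM, DET2 15.3 FPKM, DWF4 8.44 FPKM, ROT3 7.60 FPKM, BR6OX2 6.01 FPKM and BAS1 5.44 FPKM. BR6OX1 had a median of 0.787 FPKM and reached 1 FPKM in 2 libraries, so it failed the filter of 1 FPKM in 3 libraries and was described without a test, while the other 9 genes were tested. The highest library was 4.44 times the lowest for BAS1 and 3.75 times for CPD, but 1.59 times for DET2. The plot of the 10 genes by library shows these spreads.

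**Figure D1:**
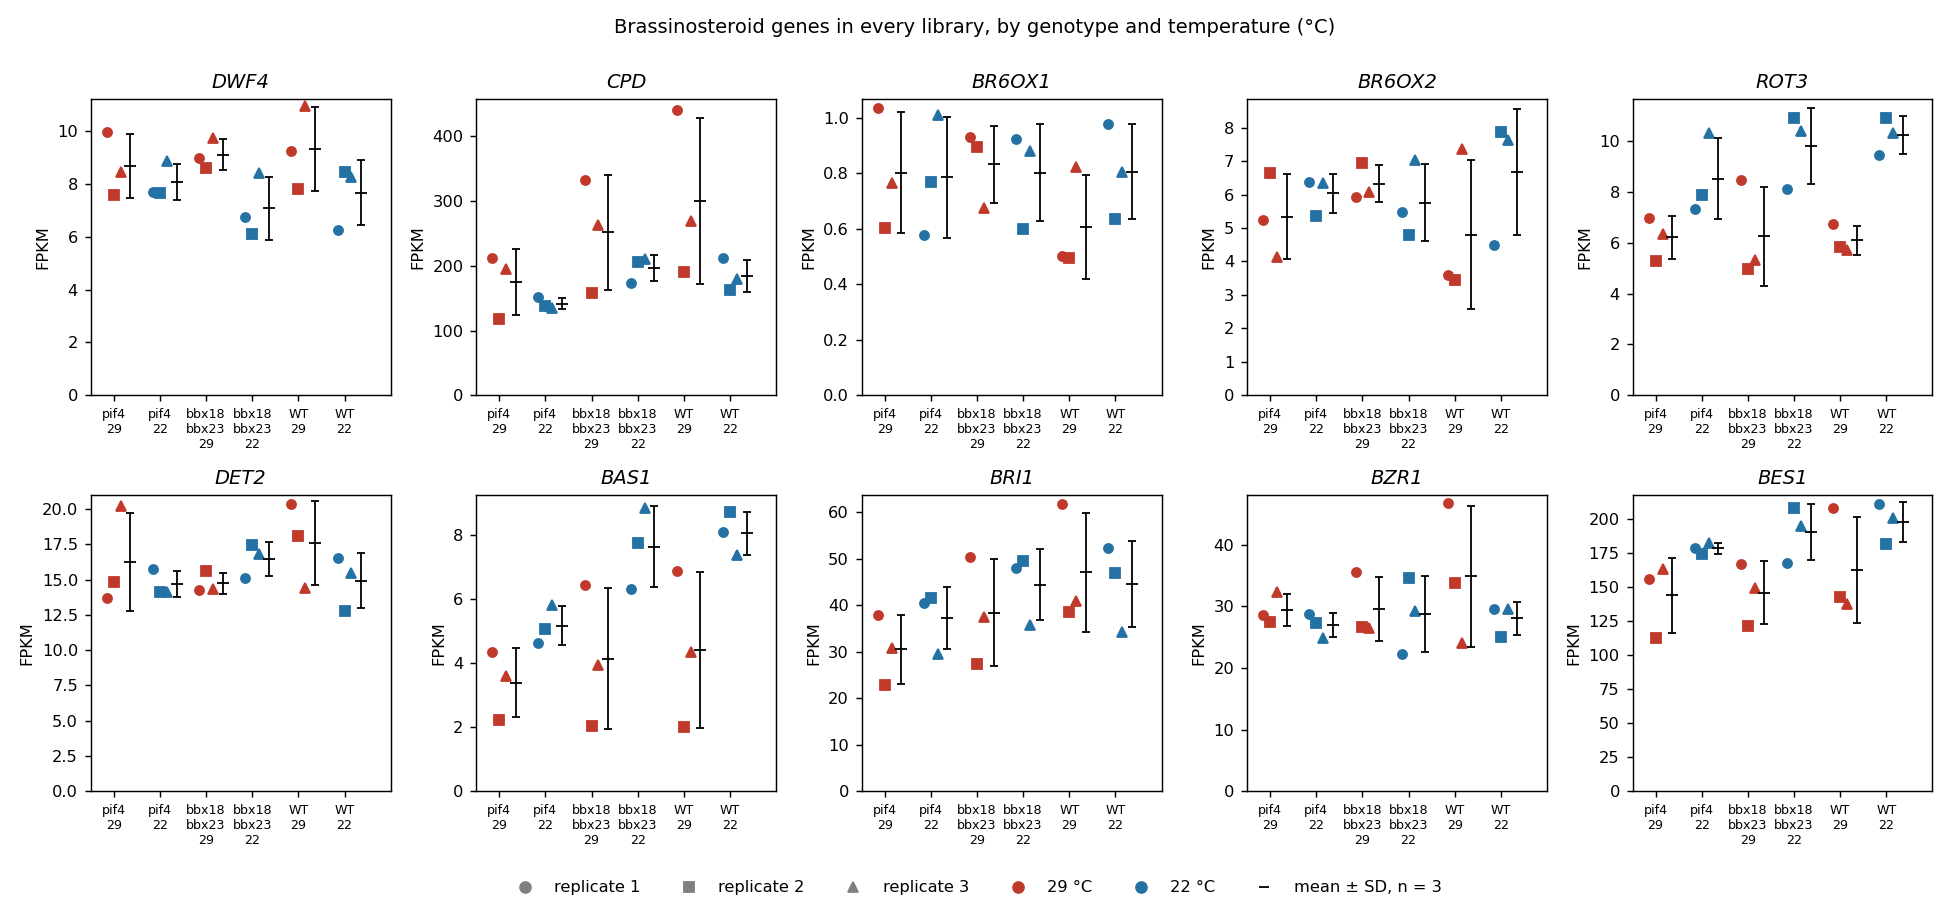
FPKM of the 10 brassinosteroid genes in each of the 18 libraries (y axis from 0, one panel per gene), by genotype and temperature in °C on the x axis. Red points are 29 °C, blue points 22 °C, the point shape is the replicate number, and the black bar is the mean ± SD of 3 libraries. ROT3, BAS1 and BES1 lie mostly lower at 29 °C, and BAS1 and CPD spread widest among the 29 °C libraries.

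Averaged over the 3 genotypes, 3 of the 9 tested genes were lower at 29 °C than at 22 °C and none was called higher. The 3 were ROT3, a P450 that hydroxylates at C-23, BAS1, the inactivating P450, and BES1, a transcription factor of the pathway. Among all 19116 genes tested, 38.7% were called in this comparison, 21.3% lower and 17.3% higher, so the share of brassinosteroid genes called was near that of the transcriptome. The median log2 difference was −0.15 over the 9 genes and −0.01 over all genes. In wild type alone 1 of the 9 was called, against 14.2% of all genes, in bbx18 bbx23 1 of 9, against 13.6%, and in pif4 none, against 13.2%. The tests are limma fits on log2(FPKM + 1) over all 18 libraries, with Benjamini-Hochberg adjustment over all genes at 0.05. A fold change on this scale understates that of low genes. Counted by libraries that do not overlap, ROT3, BAS1 and BES1 lay lower at 29 °C in pif4 (16.5% of all genes did), BES1 lay lower (18.8%) and DWF4 higher (16.5%) in bbx18 bbx23, and ROT3 and BAS1 lay lower in wild type (14.8%).

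ROT3 measured 6.96, 5.30 and 6.36 FPKM in pif4 at 29 °C, against 7.34, 7.86 and 10.3 FPKM in pif4 at 22 °C. It measured 8.47, 4.95 and 5.31 FPKM in bbx18 bbx23 at 29 °C, against 8.10, 10.9 and 10.4 FPKM in bbx18 bbx23 at 22 °C. It measured 6.74, 5.84 and 5.70 FPKM in wild type at 29 °C, against 9.46, 10.9 and 10.3 FPKM in wild type at 22 °C. Of the 9 libraries at 29 °C, 8 lay below every library at 22 °C, the exception being bbx18 bbx23 replicate 1. The mean difference was −0.55 ± 0.10 (log2, SE; adjusted p = 4.28e-04), and ROT3 was called in 26 of 26 fits of this mean. It was −0.66 ± 0.17 in wild type (adjusted p = 0.0175) and −0.60 ± 0.17 in bbx18 bbx23 (adjusted p = 0.0323). In pif4 the value was −0.39 ± 0.17 (adjusted p = 0.159), and the pif4 response differed from that of wild type by 0.27, with a 95% interval of −0.26 to 0.79 (adjusted p = 1). The wild type call was lost without wild type 29 °C replicate 2 (adjusted p = 0.0532), 29 °C replicate 3 (0.0553) or 22 °C replicate 2 (0.0641). The bbx18 bbx23 call was lost without any one of its replicates 2 and 3 at either temperature (adjusted p from 0.0979 to 0.138) and with only its own 6 libraries in the fit (0.0873).

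BAS1 measured 4.34, 2.22 and 3.60 FPKM in pif4 at 29 °C, against 4.62, 5.07 and 5.82 FPKM in pif4 at 22 °C. It measured 6.44, 2.04 and 3.95 FPKM in bbx18 bbx23 at 29 °C, against 6.34, 7.75 and 8.85 FPKM in bbx18 bbx23 at 22 °C. It measured 6.90, 2.0 and 4.35 FPKM in wild type at 29 °C, against 8.09, 8.73 and 7.39 FPKM in wild type at 22 °C. Within each genotype replicate 2 at 29 °C was the lowest library and replicate 1 the highest of the 29 °C libraries, and the temperatures overlapped only in bbx18 bbx23. The mean difference was −0.73 ± 0.18 (log2, SE; adjusted p = 0.0049) and was called in 26 of 26 fits. Its size moved from −1.0 without replicate 1 at 29 °C in all genotypes to −0.43 without replicate 2, 2 settings chosen after seeing the data. No fit gave BAS1 its own spread between replicate numbers at 29 °C. The block within temperature used 1 correlation of 0.315 for all genes. The SE is therefore too small if same-numbered libraries are not independent. Single genotypes gave −0.52 ± 0.32 in pif4 (adjusted p = 0.329), −0.83 ± 0.32 in bbx18 bbx23 (0.0979) and −0.85 ± 0.32 in wild type (0.091). The bbx18 bbx23 value was called without its 29 °C replicate 1 (−1.14, adjusted p = 0.0314) and the wild type value without its own (−1.18, 0.0255).

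BES1 measured 156, 113 and 163 FPKM in pif4 at 29 °C, against 179, 175 and 183 FPKM in pif4 at 22 °C. It measured 167, 121 and 149 FPKM in bbx18 bbx23 at 29 °C, against 168, 209 and 195 FPKM in bbx18 bbx23 at 22 °C. It measured 208, 143 and 138 FPKM in wild type at 29 °C, against 211, 182 and 201 FPKM in wild type at 22 °C. All 29 °C libraries except wild type replicate 1 lay below all 22 °C libraries. The mean difference was −0.34 ± 0.10 (log2, SE; adjusted p = 0.0133), and no single genotype was called (−0.33 in pif4, −0.39 in bbx18 bbx23, −0.31 in wild type; adjusted p = 0.246, 0.16 and 0.282). It was called in 24 of 26 fits of this mean. The exceptions were the fit without replicate 2 at 29 °C in all genotypes (−0.22, adjusted p = 0.0995) and the fit with the replicate number as a block within temperature. The BES1 transcript overlaps RRA3 on the opposite strand by 818 bases, and the strand setting of the counting is not given. RRA3 group means ran from 14.8 to 15.9 FPKM.

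The promoters of these 3 genes are shown because they were the members that fell together, with that of BZR1, the close relative of BES1 that was not called. The windows run from 250 bases before to 50 after the RefSeq gene start in TAIR10.1, 5′ to 3′ on the strand of the gene. The deposited table has no coordinates, and the genes were matched by locus identifier. ROT3 lies at chr4:17192458-17192757 on the minus strand, BAS1 at chr2:11380213-11380512 on the plus strand, BES1 at chr1:6688213-6688512 on the plus strand and BZR1 at chr1:28185254-28185553 on the plus strand. Capitals mark matches, on either strand, to CACGTG (the G-box), CGTGTG or CGTGCG (brassinosteroid response elements) or CATGTG (an E-box variant).
ROT3: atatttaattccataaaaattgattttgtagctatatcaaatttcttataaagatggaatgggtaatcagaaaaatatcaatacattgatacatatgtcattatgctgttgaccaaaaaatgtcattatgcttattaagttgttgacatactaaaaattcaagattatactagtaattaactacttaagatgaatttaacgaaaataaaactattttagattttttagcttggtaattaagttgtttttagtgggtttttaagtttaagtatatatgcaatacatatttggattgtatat
BAS1: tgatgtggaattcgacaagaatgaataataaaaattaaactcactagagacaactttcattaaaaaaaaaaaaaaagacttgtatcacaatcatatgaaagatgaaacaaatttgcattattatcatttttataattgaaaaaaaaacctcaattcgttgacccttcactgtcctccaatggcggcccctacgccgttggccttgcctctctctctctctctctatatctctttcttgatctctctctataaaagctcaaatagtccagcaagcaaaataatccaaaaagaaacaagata
BES1: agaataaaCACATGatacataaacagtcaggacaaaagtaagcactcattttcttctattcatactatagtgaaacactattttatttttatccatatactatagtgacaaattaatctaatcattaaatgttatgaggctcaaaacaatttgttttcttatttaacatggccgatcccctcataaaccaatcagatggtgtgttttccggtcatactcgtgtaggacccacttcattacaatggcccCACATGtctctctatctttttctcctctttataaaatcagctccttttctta
BZR1: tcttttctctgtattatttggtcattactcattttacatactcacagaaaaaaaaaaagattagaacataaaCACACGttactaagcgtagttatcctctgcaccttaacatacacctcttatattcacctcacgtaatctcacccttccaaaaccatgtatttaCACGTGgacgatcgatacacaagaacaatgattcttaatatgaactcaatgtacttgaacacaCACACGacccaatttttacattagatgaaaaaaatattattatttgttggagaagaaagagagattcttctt
The ROT3 and BAS1 windows held none of the 4 motifs. The BES1 window held CACATG, the reverse complement of CATGTG, starting at −242 and at −2 from the gene start. The BZR1 window held CACGTG at −85 and CACACG, the reverse complement of CGTGTG, at −178 and −22. Over the promoters of 27443 protein-coding genes, 7.7% held CACGTG, 12.9% CATGTG, 6.5% CGTGTG and 2.0% CGTGCG in either orientation. Among the other members, the windows of CPD, BR6OX1 and DET2 held CATGTG or its complement, and those of DWF4, BR6OX2 and BRI1 held no match. A match describes letters only and is no evidence of a bound site.

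Among the synthesis genes that were not called, DWF4, the C-22 hydroxylase often described as the rate-limiting step, measured 9.97, 7.59 and 8.46 FPKM in pif4 at 29 °C, against 7.70, 7.67 and 8.85 FPKM in pif4 at 22 °C. It measured 8.98, 8.61 and 9.75 FPKM in bbx18 bbx23 at 29 °C, against 6.74, 6.10 and 8.41 FPKM in bbx18 bbx23 at 22 °C, and these groups did not overlap. It measured 9.23, 7.80 and 10.95 FPKM in wild type at 29 °C, against 6.26, 8.47 and 8.27 FPKM in wild type at 22 °C. The mean difference of 0.22 ± 0.09 (log2, SE) just missed the threshold (adjusted p = 0.0519) and passed it in 8 of 26 fits, among them that scaled by size factors (0.25, adjusted p = 0.0237). The intervals of the single genotypes reached from −0.23 to 0.41 in pif4, 0.01 to 0.65 in bbx18 bbx23 and −0.07 to 0.57 in wild type.

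CPD, the P450 of the C-3 oxidation, measured 212, 118 and 195 FPKM in pif4 at 29 °C, against 152, 138 and 135 FPKM in pif4 at 22 °C. It measured 333, 158 and 264 FPKM in bbx18 bbx23 at 29 °C, against 173, 206 and 211 FPKM in bbx18 bbx23 at 22 °C. It measured 441, 189.9 and 269 FPKM in wild type at 29 °C, against 211, 163 and 179.8 FPKM in wild type at 22 °C. Replicates 1 and 3 at 29 °C were above their genotype's 22 °C libraries in every genotype, and replicate 2 was not. The mean difference was 0.39 ± 0.17 (log2, SE; adjusted p = 0.0781). It came to 0.68 (adjusted p = 4.97e-04) without replicate 2 at 29 °C in all genotypes and to 0.15 (adjusted p = 0.408) without replicate 1, so the warm value of CPD rests on which 29 °C libraries enter. The wild type value was 0.62 ± 0.29 (adjusted p = 0.187).

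DET2, the steroid 5-alpha reductase, was the steadiest of the 10. Its group means were 16.2 ± 3.48 FPKM in pif4 at 29 °C and 14.7 ± 0.954 FPKM in pif4 at 22 °C, 14.7 ± 0.731 FPKM in bbx18 bbx23 at 29 °C and 16.5 ± 1.21 FPKM in bbx18 bbx23 at 22 °C, and 17.6 ± 2.98 FPKM in wild type at 29 °C and 14.9 ± 1.94 FPKM in wild type at 22 °C (SD, n = 3 each). The mean warm difference was 0.06, with a 95% interval of −0.12 to 0.25 on the log2 scale. BR6OX2, which oxidizes castasterone to brassinolide, averaged 5.34 ± 1.26 FPKM in pif4 at 29 °C and 6.04 ± 0.580 FPKM in pif4 at 22 °C, 6.32 ± 0.552 FPKM in bbx18 bbx23 at 29 °C and 5.76 ± 1.14 FPKM in bbx18 bbx23 at 22 °C, and 4.80 ± 2.21 FPKM in wild type at 29 °C and 6.66 ± 1.89 FPKM in wild type at 22 °C. In wild type at 29 °C its libraries were 3.60, 3.46 and 7.36 FPKM, and the wild type difference of −0.43 ± 0.24 (adjusted p = 0.261) became −0.73 and was called without the third of these (adjusted p = 0.0365). The closely related BR6OX1, which makes castasterone, stayed between 0.496 and 1.04 FPKM in all 18 libraries. The BR6OX1 and BR6OX2 transcripts align at 81.9% identity over 1207 bases.

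BRI1, the receptor kinase, measured 37.8, 22.9 and 30.9 FPKM in pif4 at 29 °C, against 40.5, 41.6 and 29.5 FPKM in pif4 at 22 °C. It measured 50.4, 27.4 and 37.5 FPKM in bbx18 bbx23 at 29 °C, against 48.1, 49.5 and 35.7 FPKM in bbx18 bbx23 at 22 °C. It measured 61.8, 38.6 and 40.9 FPKM in wild type at 29 °C, against 52.3, 47.0 and 34.3 FPKM in wild type at 22 °C. The temperatures overlapped in every genotype, with a mean difference of −0.15 (95% interval −0.45 to 0.15; adjusted p = 0.44). It was 0.03 without replicate 2 at 29 °C in all genotypes and −0.34, and called, without replicate 1 (adjusted p = 0.0447).

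BZR1, the transcription factor most like BES1, averaged 29.4 ± 2.56 FPKM in pif4 at 29 °C and 27.0 ± 1.98 FPKM in pif4 at 22 °C, and 29.6 ± 5.24 FPKM in bbx18 bbx23 at 29 °C and 28.7 ± 6.16 FPKM in bbx18 bbx23 at 22 °C. It averaged 34.9 ± 11.5 FPKM in wild type at 29 °C, with libraries of 46.8, 33.8 and 24.0 FPKM, and 28.1 ± 2.66 FPKM in wild type at 22 °C (SD, n = 3 each). The mean difference was 0.14 (95% interval −0.10 to 0.39; adjusted p = 0.361). The difference between the BZR1 and BES1 responses was not tested. Their transcripts align at 81.1% identity over 1161 bases, below the 90% used here to call a close copy. BZR1 overlaps a protein-coding neighbour on the opposite strand by 629 bases and a noncoding RNA by 220 bases.

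**Figure D2:**
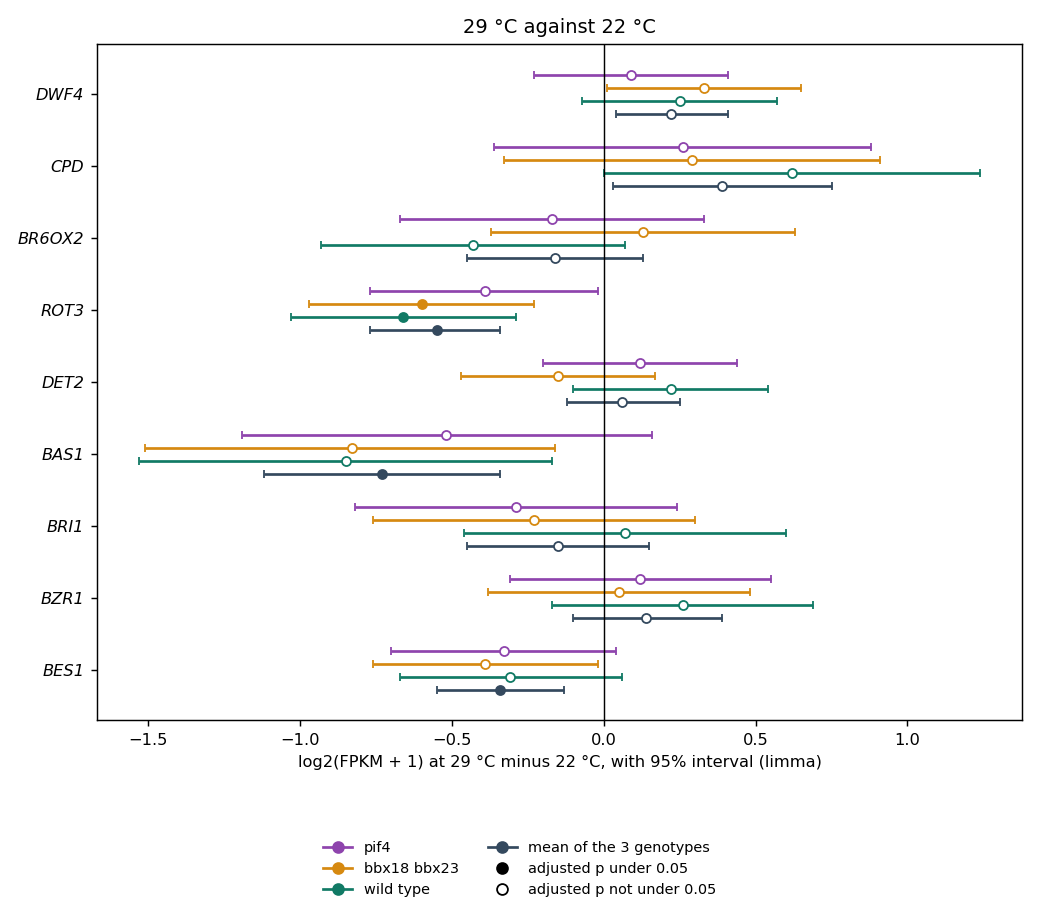
Difference in log2(FPKM + 1) at 29 °C minus 22 °C for the 9 tested genes (rows), with 95% intervals from limma, not adjusted for multiple tests. Colours are pif4, bbx18 bbx23, wild type and the mean of the 3 genotypes, and filled points had an adjusted p under 0.05. ROT3 is filled in bbx18 bbx23, wild type and the mean, and BAS1 and BES1 are filled in the mean only.

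With the replicate number left out of the fit, no brassinosteroid gene was called in pif4 against wild type, in bbx18 bbx23 against wild type, or in bbx18 bbx23 against pif4. These comparisons called few genes anywhere. For pif4 against wild type 0.136% of the 19116 genes were called at 29 °C and 0.0209% at 22 °C, and for bbx18 bbx23 against wild type 0.0157% at 29 °C and 0.0262% at 22 °C. At 22 °C the 4 genes called for pif4 against wild type became 13 with the replicate number as a block, and no member was among them. At 29 °C, where the numbers were not taken to pair pif4 and wild type libraries, CPD and BRI1 were called lower in pif4 only in the fit with the number as a block within temperature. The numbers with p under 0.05 before adjustment, in the same order as the shares, were 630, 619, 211 and 249 genes. Each was below a share of 0.05 of the 19116 genes, the share expected with no difference at all. For bbx18 bbx23 against pif4 at 29 °C 0.0942% of genes were called.

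The widest differences of a member in these comparisons were in pif4 at 29 °C. CPD was 212, 118 and 195 FPKM in pif4 and 441, 189.9 and 269 FPKM in wild type, a difference of −0.73 ± 0.29 (log2, SE; 95% interval −1.35 to −0.11; adjusted p = 1). The groups overlapped for CPD. BRI1 was lower in pif4 by 0.60 ± 0.25, with no overlap of the 29 °C libraries (95% interval −1.13 to −0.08; adjusted p = 1); 2.59% of all genes showed such a separation downwards. Left-out libraries moved the CPD value from −1.02 (without wild type 29 °C replicate 2) to −0.41 (without replicate 1) and that of BRI1 from −0.77 (without pif4 29 °C replicate 1) to −0.40 (without wild type 29 °C replicate 1).

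At 22 °C BAS1 and CPD lay lower in all 3 pif4 libraries than in all 3 wild type libraries, a separation shown downwards by 3.74% of all genes. Within each replicate number BAS1, CPD, BRI1 and BES1 were lower in pif4, as 16.6% of all genes were. The other tested members were mixed, and no member was called with the number as a block. The differences were −0.56 ± 0.32 for BAS1 and −0.38 ± 0.29 for CPD (log2, SE; adjusted p = 0.987 for both). With the replicate number as a block they were −0.56 ± 0.14 (adjusted p = 0.21) and −0.38 ± 0.13 (adjusted p = 0.397). The wild type libraries and the pif4 libraries enter both the temperature and the genotype comparisons, so these values are not independent of the warm responses. In bbx18 bbx23 at 29 °C CPD, BRI1 and DET2 were lower than in wild type within each replicate number, as 9.74% of all genes were, and none was called with the number as a block (−0.23, −0.30 and −0.23; adjusted p = 1). The largest difference from wild type there was 0.40 ± 0.24 for BR6OX2 (95% interval −0.10 to 0.90; adjusted p = 1).

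**Figure D3:**
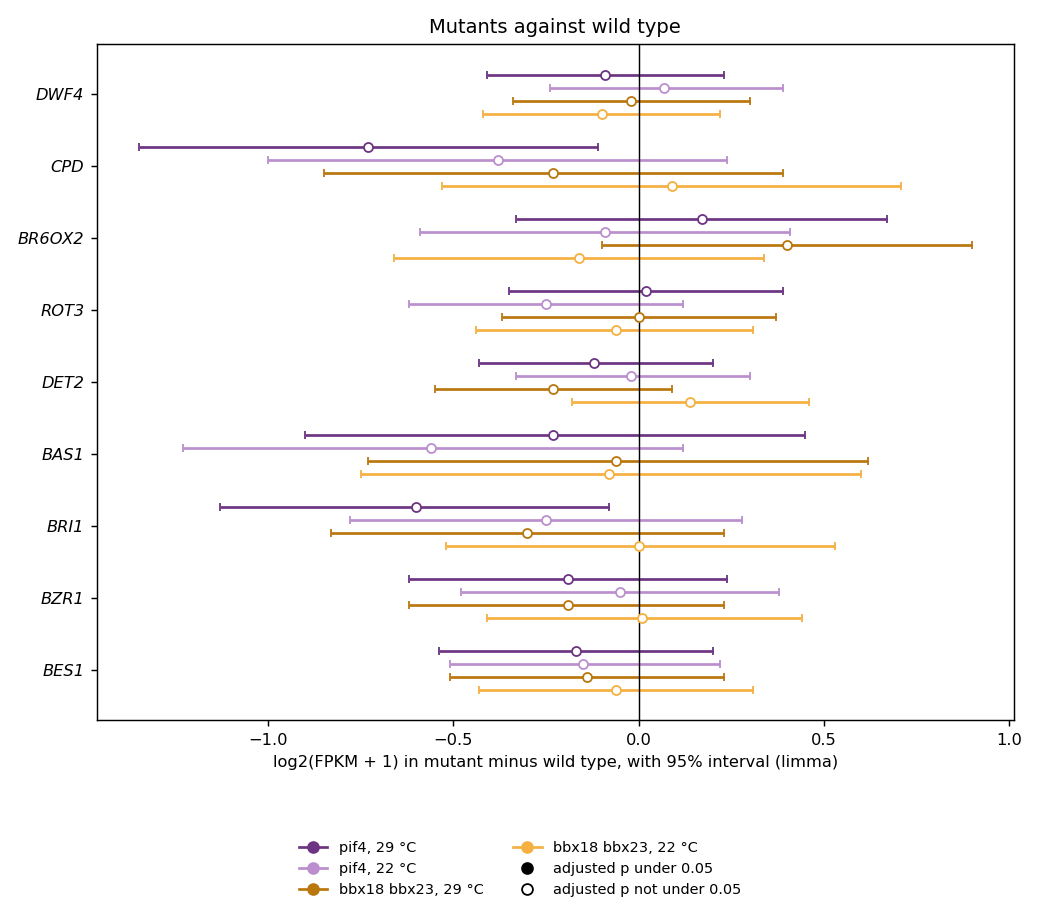
Difference in log2(FPKM + 1) in each mutant minus wild type for the 9 tested genes (rows), with 95% intervals from limma, at 29 °C and 22 °C. All points are open because no adjusted p was under 0.05; the intervals of CPD and BRI1 in pif4 at 29 °C end below 0 before adjustment.

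None of the 9 genes differed between genotypes in its warm response beyond the adjusted threshold (adjusted p = 1 for all 9 in both mutants; 0.0157% of all genes were called for pif4 minus wild type and 0 for bbx18 bbx23 minus wild type, with 248 and 133 at an unadjusted p under 0.05). The widest of these values were 0.56 for BR6OX2 in bbx18 bbx23 minus wild type (95% interval −0.15 to 1.27) and −0.37 for DET2 (−0.82 to 0.08), and for pif4 minus wild type −0.36 for CPD (−1.23 to 0.52) and −0.36 for BRI1 (−1.10 to 0.39). Intervals of this width leave room for sizeable differences between genotypes.

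Libraries with the same replicate number moved together at 29 °C in several of these genes. Replicate 2 was below replicate 1 in all 3 genotypes for 7 of the 9 tested genes, a pattern that 32.0% of all genes showed. The largest of these differences were in BAS1, with −0.73 in pif4, −1.29 in bbx18 bbx23 and −1.40 in wild type on the log2 scale, and in CPD, with −0.85 in pif4, −1.07 in bbx18 bbx23 and −1.21 in wild type. BRI1 gave −0.70 in pif4, −0.86 in bbx18 bbx23 and −0.66 in wild type. At 22 °C none of the 9 was lower in replicate 2 in all 3 genotypes, while 11.1% of all genes were. ROT3 and BAS1 were higher in all 3, by 0.09 to 0.39, and so were 12.5% of all genes.

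Genes of the circadian clock, whose levels follow the hour of the day, differed between the same libraries. At 29 °C the clock gene PRR9 was higher in replicate 2 than in replicate 1 by 3.54 in pif4, 3.53 in bbx18 bbx23 and 3.38 in wild type, and GI by 2.75, 2.01 and 2.42. At 22 °C PRR9 and GI differed by −0.85 to 0.21. They had the widest 29 °C differences of the 10 clock genes followed. At 29 °C 8 of the 10 were higher in replicate 2 in all 3 genotypes, as 28.3% of all genes were. TOC1 was lower (−0.49, −0.46 and −0.48), as 32.0% of all genes were, and BOA was mixed (−0.15 to 0.02). Of the 10 clock genes, 7 were called higher and 2 lower at 29 °C in the mean over genotypes, against 17.3% and 21.3% of all genes. The labels give no hour of harvest, and its part in the differences of the brassinosteroid genes was not tested. Shoot markers differed by temperature too, with summed FPKM of the 8 genes of 28345.8 to 41878.2 in pif4 at 29 °C against 71747.3 to 87842.4 in pif4 at 22 °C, 28915.1 to 33260.4 in bbx18 bbx23 at 29 °C against 71802.5 to 87232.7 at 22 °C, and 26336.7 to 47600.7 in wild type at 29 °C against 63788.1 to 94190.3 at 22 °C. Most of that sum was LHCB1.3 and RBCS1A, photosynthesis genes, which averaged 18698.6 and 14821.2 FPKM in pif4 at 29 °C and 44613.9 and 29504.0 FPKM in pif4 at 22 °C. LHCB1.3 has a near copy, so its value is uncertain. Among the 8 shoot markers, 5 were called lower in the mean, against 21.3% of all genes, with a median log2 difference of −0.44. GLK2 (0.05) and STM (0.02) were among the shoot markers not called. Of the 8 root markers 2 were called lower, against the same 21.3% of all genes. Summed root markers ran from 1550.4 to 2265.2 FPKM at 29 °C and from 1608.4 to 2482.6 FPKM at 22 °C. Whether fewer cells of a type or less RNA per cell lie behind a value cannot be told apart in whole seedlings, and the part of these markers in the results was not tested.

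**Figure D4:**
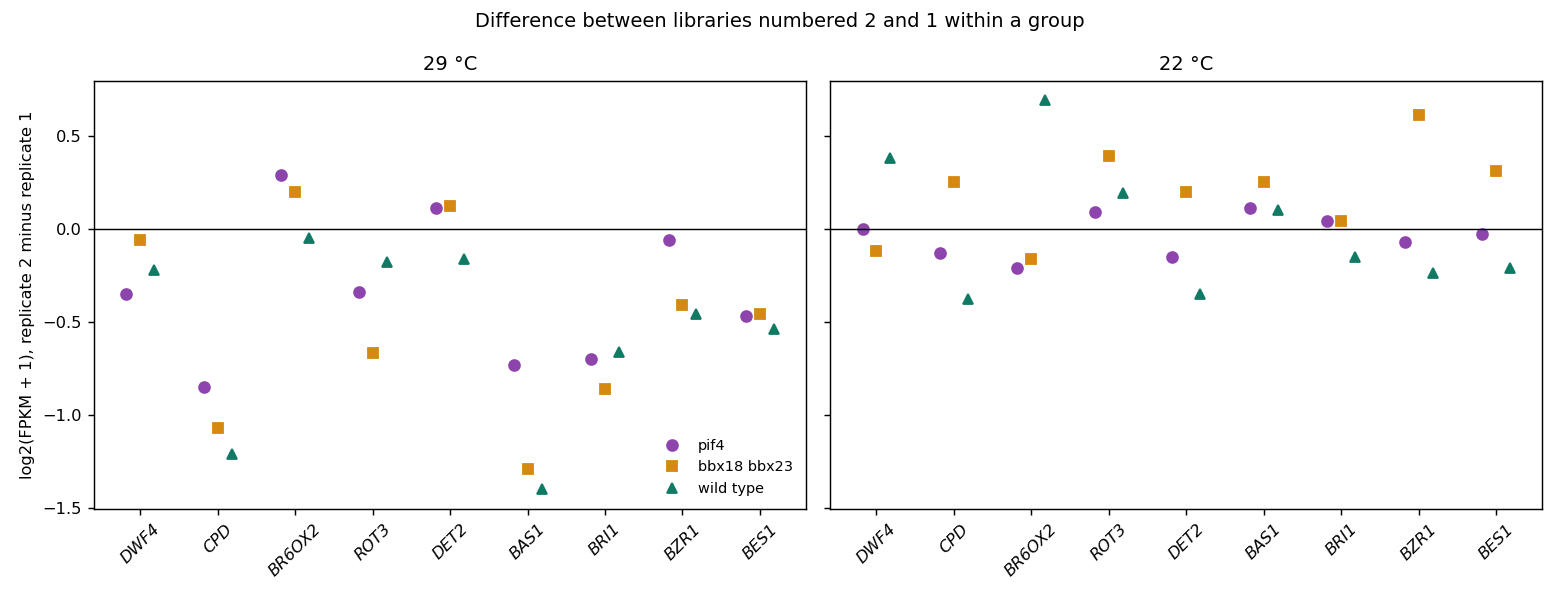
Difference in log2(FPKM + 1) between replicate 2 and replicate 1 of a group for the 9 tested genes, at 29 °C (left) and 22 °C (right). Point shapes and colours are the genotypes. At 29 °C CPD, BAS1 and BRI1 lie below −0.6 in all 3 genotypes, and at 22 °C no gene is below 0 in all 3.

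Beyond these members, 67 other genes of the pathway were followed in 6 lists, of which 61 passed the filter. In the mean over genotypes 11 were called higher and 12 lower at 29 °C, against 17.3% and 21.3% of all genes. In pif4 1 was called higher and 6 lower, against 4.67% and 8.49% of all genes. In bbx18 bbx23 5 were higher and 2 lower, against 5.52% and 8.06%, and in wild type 5 and 2, against 5.63% and 8.55%. The difference between these counts was not tested, and 0 of the 61 were called in either comparison of warm responses between genotypes. Of the 12 other synthesis genes, 11 were tested, and in the mean over genotypes 1 was higher and 4 lower. SMT1, a sterol methyltransferase, rose by 0.27 ± 0.07 (adjusted p = 0.00674). CAS1, a cycloartenol synthase, and the sterol reductases DWF5 and FK fell by 0.34, 0.22 and 0.31 (adjusted p = 8.27e-04, 0.00704 and 0.00923). Of 6 other inactivation genes, UGT73C6, a glucosyltransferase, fell by 0.84 ± 0.23 (adjusted p = 0.00788) and the other 5 were not called. Its transcript shares 90.9% identity with the neighbouring UGT73C5 (DOGT1), and a noncoding RNA overlaps it by 1694 bases, so its value is uncertain.

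In the receptor list of 8 genes, 1 was higher and 1 lower in the mean over genotypes, against 17.3% and 21.3% of all genes. BRS1, a secreted carboxypeptidase that promotes BRI1 signalling, averaged 9.99 ± 1.81 FPKM in pif4 at 29 °C and 20.4 ± 2.93 FPKM in pif4 at 22 °C, 10.2 ± 0.848 FPKM in bbx18 bbx23 at 29 °C and 18.8 ± 1.83 FPKM in bbx18 bbx23 at 22 °C, and 9.33 ± 0.987 FPKM in wild type at 29 °C and 19.8 ± 3.63 FPKM in wild type at 22 °C. It fell by 0.93 ± 0.09 in the mean (adjusted p = 6.57e-07) and was called in each genotype. BRL3, a BRI1-like receptor, rose by 0.43 ± 0.09 (adjusted p = 0.00118). Of 14 genes of cytoplasmic signalling, 11 were tested, with 3 higher and 3 lower in the mean, against the same shares of all genes. BSK5 and BSK1, receptor-like cytoplasmic kinases, rose by 0.42 and 0.33 (adjusted p = 0.00175 and 0.0123), and BSK6, of the same family, fell by 0.23 (0.0153). BIL1, a kinase related to BIN2, which inhibits the pathway, fell by 0.37 (adjusted p = 7.57e-04). Of the 11 other transcription factors 9 were tested, and BIM1, a partner of BES1, rose by 0.46 ± 0.08 (adjusted p = 3.90e-04).

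Of 16 genes known to respond to the hormone or to be bound by BZR1, 5 were higher and 3 lower in the mean, against 17.3% and 21.3% of all genes. BEE1, a helix-loop-helix gene induced by brassinosteroid, rose by 1.46 ± 0.18 (log2, SE; adjusted p = 1.02e-05) and was called in each genotype. KDR (PRE6), another of that family, fell by 1.27 ± 0.16 (adjusted p = 1.19e-05) and the expansin gene EXPA8 by 1.08 ± 0.19 (2.95e-04). IAA19, which encodes an auxin response repressor, averaged 6.03 ± 1.31 FPKM in pif4 at 29 °C and 6.48 ± 1.26 FPKM in pif4 at 22 °C, 15.9 ± 1.05 FPKM in bbx18 bbx23 at 29 °C and 7.85 ± 0.707 FPKM in bbx18 bbx23 at 22 °C, and 20.6 ± 0.846 FPKM in wild type at 29 °C and 8.94 ± 1.37 FPKM in wild type at 22 °C (SD, n = 3 each). It was the only one of the 61 genes called in a mutant against wild type, lower in pif4 at 29 °C by 1.64 ± 0.16 (adjusted p = 4.84e-05). At 29 °C it was higher in bbx18 bbx23 than in pif4 by 1.28 (adjusted p = 0.00142).

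The genes whose values followed the members most closely over the 18 libraries are given by Pearson correlation of log2(FPKM + 1), as a description over libraries that share groups and replicate numbers. For BES1 these were AT3G16850 and GATL3 (0.97 for both), for BRI1 ABCB19, an auxin transporter (0.96), and IQD14 (0.95), and for CPD STP14 (0.95) and RMR1 (0.94). BAS1 followed ESE3 (0.95) and AT3G12150 (0.94), and AT3G12150 was also the closest to ROT3 (0.93). The highest values were 0.94 for BZR1 (NADP-ME4), 0.90 for DWF4 (PAP12), 0.89 for DET2 (AT5G11770) and 0.85 for BR6OX2 (AT5G25360). Deviations from the group means, which leave out temperature and genotype, gave 0.98 for BES1 and AT3G16850, 0.95 for BRI1 and ABCB19, 0.96 for CPD and STP14, 0.91 for BAS1 and ESE3, and 0.82 for ROT3 and AT3G12150.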

How the data were processed

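RNA of whole seedlings was made into Illumina TruSeq libraries, per the labels' protocols, and the authors deposited FPKM per gene for 18 libraries, a unit given per the labels; 0 columns lacked a sample. Bowtie 0.12.2 and the build mm8 are named, per the submitters' processing notes. That build is murine while the rows are Arabidopsis loci, so genome, annotation, counter and read depth count as not given in the sources used here, and overlapping genes can share reads. Precision is therefore known only from the spread between libraries. Names and promoters came from the TAIR10.1 RefSeq annotation, in which 32835 of 33602 loci were found.

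A minimum of 1 FPKM in 3 or more libraries left 19116 genes. log2(FPKM + 1) was fitted with limma 3.58.1 (R 4.3.3), one coefficient per group, with a variance trend, and 11 contrasts were tested 2-sided with Benjamini-Hochberg adjustment at 0.05. The 10 members and the other gene lists were chosen with earlier results of these data known. Named genes were the members, the targeted genes, up to 4 called genes of each list by smallest adjusted p, and the 2 genes most correlated with each tested member. The fit was tested on simulated data with noise drawn independently for each library, which does not cover libraries that move together by replicate number.

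Labels give the groups the same replicate numbers. The deviations of same-numbered libraries from their group means correlated above 0.1 in every pair only for pif4 and wild type at 22 °C (0.502, 0.491 and 0.604) and for bbx18 bbx23 and wild type at 29 °C (0.702, 0.732 and 0.239), and the numbers were taken to pair libraries in those 2 comparisons. Alternatives were a pseudocount of 0.1, no filter, size factors, only the libraries compared, 2 replicate blocks and leaving out libraries.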

Additional observations from a re-analysis of the deposited data

How the results depend on the processing

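ROT3 and BAS1 were called lower in the mean over genotypes in 26 of 26 fits and BES1 in 24 of 26. None of these fits gave a gene its own spread between replicate numbers within a temperature. The counts therefore cover libraries that move together by number only in part. Leaving out 1 library gave counts of called genes of 1524 to 2542 for the warm response of pif4 and 1519 to 2980 for bbx18 bbx23, 15 to 29 for pif4 against wild type at 29 °C, 1 to 6 for bbx18 bbx23 against wild type at 22 °C and 0 to 6 for the response of pif4 minus that of wild type. Counts of members called ran from 0 to 2 in bbx18 bbx23, 0 to 2 in wild type and 3 to 5 in the mean. Over all 19116 genes, 1951 to 3000 were called in wild type and 6588 to 7383 in the mean in these fits. Of members that changed sign in these fits, DWF4 in pif4 ran from −0.01 to 0.17, DET2 in pif4 from −0.04 to 0.22, BZR1 in bbx18 bbx23 from −0.11 to 0.19 and BRI1 in wild type from −0.14 to 0.19; none was called with all libraries.

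Dropping every 29 °C library numbered 1, chosen after seeing the data, left 14 genes called for pif4 against wild type at 29 °C, 0 for bbx18 bbx23 against wild type and 10 for bbx18 bbx23 against pif4. In the warm responses it left 2 members called in bbx18 bbx23 and 2 in wild type (13.6% and 14.2% of all genes were called with all libraries). There DWF4 in pif4 was −0.01, BZR1 in bbx18 bbx23 −0.09 and BRI1 in wild type −0.14. Dropping those numbered 2, also added later, left 13, 0 and 7 genes in the same comparisons, 0 members in bbx18 bbx23 and 2 in wild type, and BRI1 in the mean at 0.03.

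With only the libraries compared, 1096 genes were called for the warm response of pif4 and 1289 for wild type, 6 for pif4 against wild type at 29 °C, 1 for bbx18 bbx23 against wild type at 22 °C and 0 at 29 °C, 1 for bbx18 bbx23 against pif4, and 0 members for bbx18 bbx23; these fits hold fewer libraries. Without the filter 7 genes were called for pif4 against wild type at 22 °C and 1 for the response of pif4 minus that of wild type, which had 0 with a pseudocount of 0.1. The cause of these last changes was not tested.

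With the replicate number as a block over all libraries, 5 members were called in the mean, adding DWF4 (0.22, adjusted p = 0.0313) and CPD (0.39, adjusted p = 0.0265). Without the block 38.7% of all genes were called in the mean. The block called 5 genes for the response of pif4 minus that of wild type. It gives a number the same effect at both temperatures, while same-numbered libraries of a genotype at 29 °C and 22 °C correlated at −0.376 to 0.182 in their deviations. With the replicate block within temperature, 13 genes were called for pif4 against wild type at 22 °C and 47 at 29 °C, and 8 for the response of pif4 minus that of wild type. The block within temperature called 2 members in the warm response of bbx18 bbx23 (13.6% of all genes were called without it) and 2 in that of wild type (14.2%), in both adding BAS1 (adjusted p = 0.0488 and 0.0426). It called 2 members for pif4 against wild type at 29 °C, CPD (−0.73, adjusted p = 0.0406) and BRI1 (−0.60, adjusted p = 0.00961), where replicate 3 of the groups correlated at −0.324, so the numbers were not taken to pair these libraries. BES1 in the mean gave an adjusted p of 0.0522 in that fit, with a correlation within blocks of 0.315. In the 2 comparisons where the numbers pair libraries, the block changed no call of a member.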
